A study of Homo sapiens with 14 samples.

Results

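OVCAR-3 cells that had become resistant to the CDK2 inhibitor PHA-533533 and were then passaged without it were compared with the parental line they came from. OVCAR-3, a human cell line from an ovarian carcinoma, carries extra copies of CCNE1, the gene of cyclin E1. The first group was 5 independently derived resistant sublines (R1, R3, R5, R6 and R7) at 0 µM inhibitor and passage 10 or later, 1 array each, called stable. The same 5 sublines were arrayed once each at passage 5 or later in 4 µM PHA-533533, called selected, and those values are given beside the others without a test. Parental OVCAR-3 in medium filled 4 arrays. The comparison thus used 9 of the 14 arrays of the series. Each subline is 1 isolate arrayed once per state. The labels give no passage for the parental cells and do not say whether their 4 arrays came from separate cultures, so p-values measure the spread between these arrays, and time in culture and selection cannot be told apart.

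RNA was measured on Affymetrix whole-transcript arrays, and every value below is a deposited log2 signal, so a difference of 1 is a 2-fold change in signal. Of 32295 rows, 19148 named 1 gene, and where several rows named the same gene the brightest one on average stood for it, which left 18398 genes. The described genes are the 413 of 18398 whose 5 stable values all lay above the 4 parental values (152 genes, 0.826% of all) or all below them (261 genes, 1.42% of all), which is 2.24% of the genes together. That choice used the values of this comparison, so the lack of overlap is a description. The test of the comparison was limma's moderated test over all 18398 genes with Benjamini-Hochberg adjustment at 0.05. It called 1 gene, AQP5, which is 0.00544% of the genes. Without adjustment, 454 genes were higher (2.47%) and 666 lower (3.62%) at p under 0.05. The median difference of all genes was -0.004. The number of calls rested on stable R1, since 26 genes were called without that array, and it was 2 without stable R3 and 2 without parental array 3.

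CDK2 is the kinase that cyclin E and cyclin A activate at the start of and through DNA replication. Arraying the sublines after withdrawal asks which RNA differences are present when the compound is not. Immediate early genes such as FOS and EGR1 are transcribed within minutes of growth factor or stress signalling through MAP kinases. Their RNA is short-lived, and MAP kinase phosphatases such as DUSP1 are made in the same burst and shut the signal off. Serum response factor at CArG boxes and CREB-family factors at TGACG sites are known activators of these promoters.

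FOS, FOSB, EGR1 and DUSP1 were all lower in every stable array, and the 250 bases before the start of each (RefSeq, GRCh38.p14, gene strand) are shown because each holds at least 1 of the motifs searched. Capitals mark matches on either strand to the CArG box, to the CREB-family letters TGACG, to their palindrome TGACGTCA, which contains the shorter motif on each strand, and to TATAAA. Where the CREB-family letters lie on the opposite strand, the capitals show their reverse complement. The windows lie at chr14:75278578-75278827 (+), chr19:45467746-45467995 (+), chr5:138465229-138465478 (+) and chr5:172771196-172771445 (-).
FOS: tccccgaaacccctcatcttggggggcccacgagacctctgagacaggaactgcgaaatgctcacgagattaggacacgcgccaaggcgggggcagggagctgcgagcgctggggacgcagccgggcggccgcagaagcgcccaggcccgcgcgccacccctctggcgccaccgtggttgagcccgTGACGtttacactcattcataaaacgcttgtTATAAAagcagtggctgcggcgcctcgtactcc
FOSB: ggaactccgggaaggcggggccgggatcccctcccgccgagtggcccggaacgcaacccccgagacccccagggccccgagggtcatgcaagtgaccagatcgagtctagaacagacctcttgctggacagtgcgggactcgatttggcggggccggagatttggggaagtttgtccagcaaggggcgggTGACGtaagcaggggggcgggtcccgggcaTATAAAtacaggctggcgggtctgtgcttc
EGR1: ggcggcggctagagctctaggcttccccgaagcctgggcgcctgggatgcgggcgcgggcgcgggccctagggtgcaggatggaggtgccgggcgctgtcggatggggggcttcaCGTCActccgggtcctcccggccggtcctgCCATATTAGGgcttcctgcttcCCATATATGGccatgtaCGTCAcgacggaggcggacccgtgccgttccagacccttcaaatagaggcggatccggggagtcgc
DUSP1: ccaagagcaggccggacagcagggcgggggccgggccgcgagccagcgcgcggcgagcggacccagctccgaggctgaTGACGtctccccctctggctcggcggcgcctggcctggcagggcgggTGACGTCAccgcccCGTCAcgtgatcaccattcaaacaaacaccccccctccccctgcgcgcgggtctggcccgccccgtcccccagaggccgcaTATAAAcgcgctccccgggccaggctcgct
In FOS a TGACG stood 64 to 60 bases before the start, and in FOSB one stood 60 to 56 bases before it. EGR1 held CArG boxes 105 to 96 and 83 to 74 bases before its start, and TGACG at 135 to 131 and 66 to 62 bases. DUSP1 held the full TGACGTCA 125 to 118 bases before its start. The windows of FOS, FOSB and DUSP1 held no CArG box and that of EGR1 no TATAAA. Bases beyond the 250 were not searched. The windows of AQP5, NID2 and KLK10, searched alike and not shown, held none of the motifs. Of the 14227 measured genes with a promoter in the RefSeq table, 26.0% held TGACG, 2.38% TGACGTCA, 1.17% a CArG box, 8.60% TATAAA and 4.91% TGANTCA, the AP-1 site. Among the 186 lower genes with a promoter, the shares were 24.2% for TGACG, 3.23% for TGACGTCA, 3.76% for a CArG box, 11.8% for TATAAA and 7.53% for TGANTCA. Among 123 higher genes they were 20.3%, 0.813%, 0.813%, 9.76% and 5.69% in the same order. A match is a run of letters and not a measured binding site.

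AQP5, a water channel of secretory epithelia, fell in the stable sublines. Its signal was 8.70, 8.68, 8.68, 8.74 and 8.67 in stable R1, R3, R5, R6 and R7, against 9.84, 9.73, 9.81 and 9.43 in parental arrays 1 to 4. The stable arrays spanned less than 0.1 and lay 0.70 below the lowest parental array. The mean was 8.69 ± 0.03 (SD, n = 5) in stable and 9.70 ± 0.19 (SD, n = 4) in parental cells, a difference of -1.01 (SE 0.09, limma adjusted p = 0.00347), or 0.496 times the parental signal. In inhibitor the same sublines had 8.54, 9.26, 9.23, 8.46 and 8.79. The other 11 measured aquaporins held no non-overlapping gene, against 2.24% of all genes, and the median difference of all 12 was -0.02. With bulk RNA, fewer cells expressing a gene and less RNA per cell cannot be told apart, here or for any gene below.

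**Figure D1:**
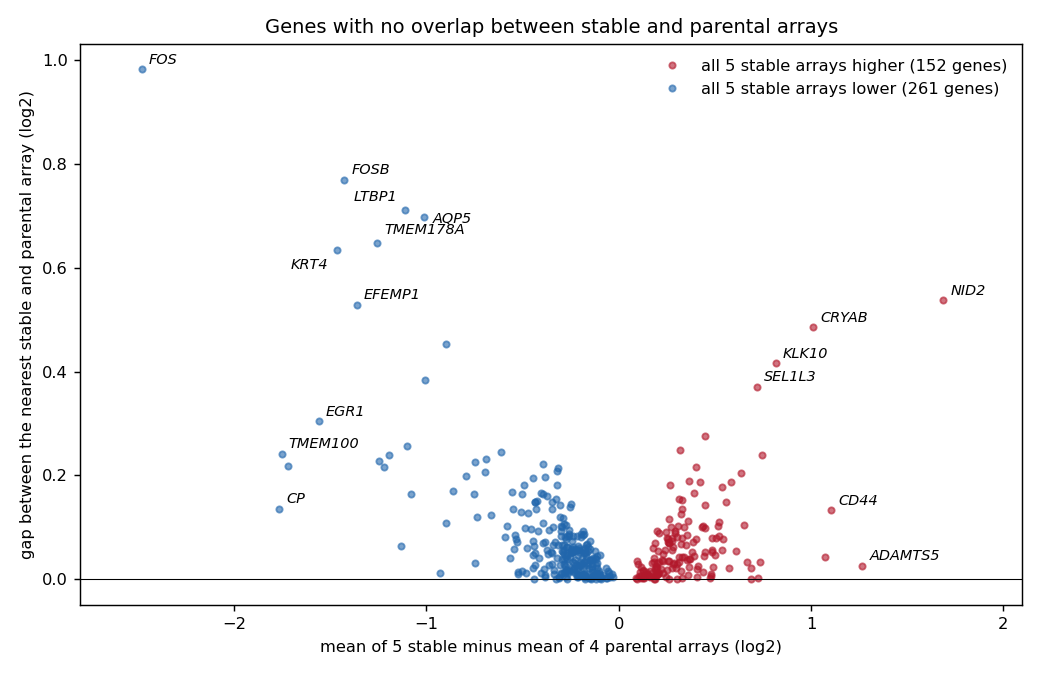
Each point is 1 of the 413 genes with no overlap between stable and parental arrays, with the difference of the group means on the x axis and the distance between the nearest stable and parental arrays on the y axis, both in log2 units. FOS lies farthest out at -2.48 with a gap of 0.98, and NID2 has the widest gap among higher genes at 0.54.

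Of 25 measured immediate early genes, 24 had a lower mean in stable than in parental arrays. FOS, a subunit of the AP-1 transcription factor, had the largest difference of all 18398 genes. It measured 9.46, 8.01, 8.17, 8.20 and 8.07 in stable R1, R3, R5, R6 and R7, against 10.45, 11.26, 10.44 and 11.31 in the parental arrays. Stable R1 was the highest of its group and still 0.98 below the lowest parental array. The difference was -2.48 (SE 0.30, limma adjusted p = 0.0524), or 0.179 times the parental signal, which does not pass the threshold. It passed in 7 of 19 alternatives, among them the fit without stable R1. In inhibitor the sublines had 10.05, 10.14, 10.16, 10.92 and 10.34, nearer to the parental than to the stable mean.

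FOSB, a second AP-1 subunit, measured 8.19, 7.96, 8.26, 8.29 and 8.25 in stable arrays, against 9.15, 10.05, 9.06 and 10.22 in parental ones. Its difference was -1.43 (SE 0.23, limma adjusted p = 0.0881), and the selected arrays lay between 8.51 and 9.16. EGR1, a zinc finger transcription factor, measured 11.83, 10.30, 10.69, 10.89 and 11.03 in stable arrays, against 12.27, 12.82, 12.14 and 12.81 in parental ones. Stable R1 was again nearest to the parental arrays, and the difference was -1.56 (SE 0.27, limma adjusted p = 0.135). For FOS, FOSB and EGR1 the parental arrays fell into a lower pair, arrays 1 and 3, and a higher pair, arrays 2 and 4. The same pairs parted in other lower genes, KRT4, TMEM100, RNF180 and CXCL2 among them, but not in AQP5, LTBP1 or CP.

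Of the 25 genes, these 3 lay below the parental range in all 5 stable arrays and none lay above it, against the background of 1.42% lower. The median difference over the list was -0.285, and 9 were lower at an unadjusted p under 0.05, against 3.62% of all genes. None of the 25 passed the adjusted threshold. ZFP36, JUN, NR4A1 and SRF are named after their values were seen. ZFP36, an RNA-binding protein that destabilises short-lived mRNAs, measured 10.13, 9.46, 9.30, 9.51 and 9.42 in stable arrays, against 10.48, 11.10, 10.04 and 11.10 in parental ones, and 1 stable array lay inside the parental range. JUN, the AP-1 partner of FOS, differed by -0.63 and NR4A1, an orphan nuclear receptor, by -0.41, both with overlapping arrays. SRF, the gene of serum response factor itself, differed by 0.04. Averaged over the list, stable R1, R3, R5, R6 and R7 lay at -0.35, -0.24, -0.55, -0.60 and -0.59 from the parental mean. Parental arrays 1 to 4 lay at -0.12, 0.16, -0.28 and 0.23 from the same mean, so stable R3 and parental array 3 overlap at the level of the list.

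**Figure D2:**
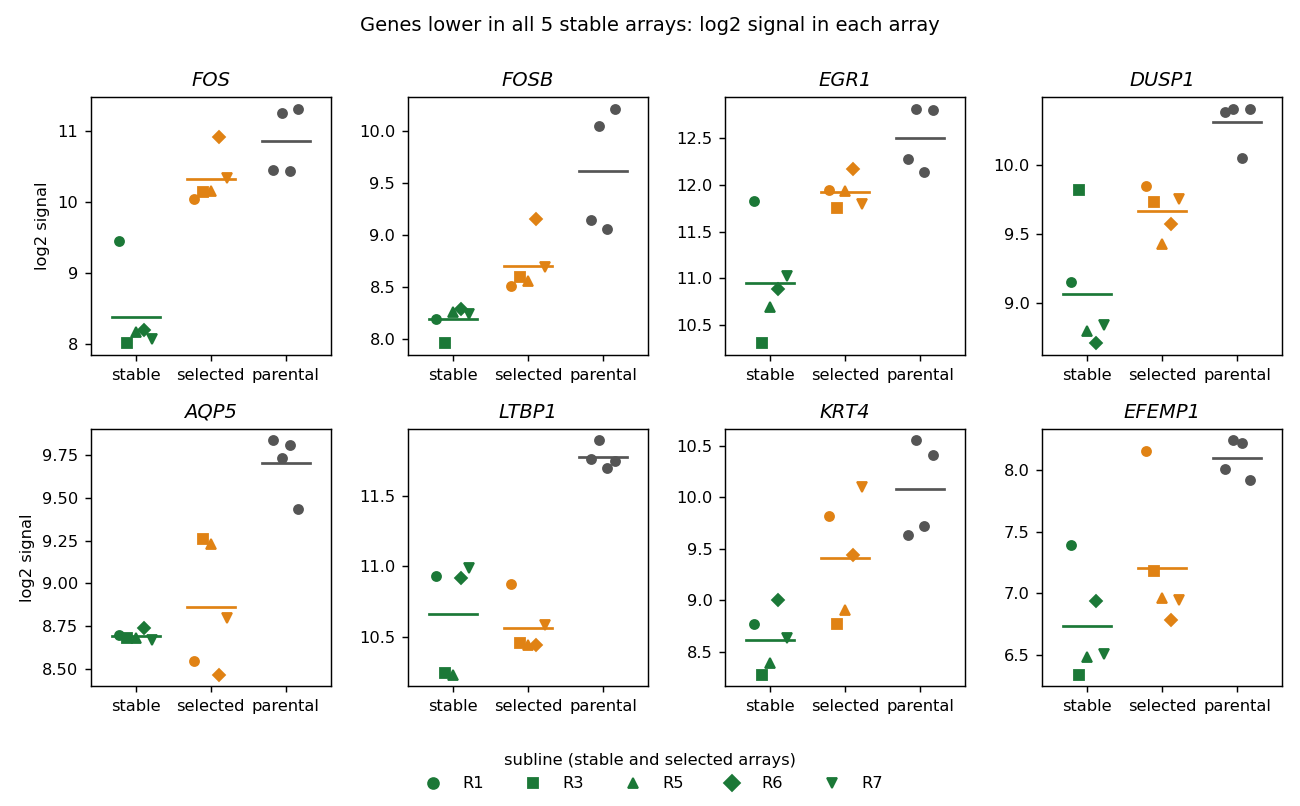
Log2 signal of 8 genes that were lower in every stable array, 1 point per array and a line at each group mean, with stable (green), selected (orange) and parental (grey) arrays from left to right and the marker shape naming the subline. In every gene shown but LTBP1 the selected mean sits between the stable and parental means, while in LTBP1 stable and selected arrays share the range below 11.0.

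Genes downstream of MAP kinases did not move one way. DUSP1, a phosphatase that inactivates MAP kinases, measured 9.15, 9.82, 8.80, 8.71 and 8.84 in stable arrays, against 10.38, 10.40, 10.04 and 10.40 in parental ones. The difference was -1.24 (SE 0.20, limma adjusted p = 0.106), and the selected arrays lay between 9.42 and 9.84. DUSP4, a nuclear phosphatase that acts on ERK, was on the other side with 7.33, 8.24, 7.63, 7.35 and 7.67 in stable arrays, against 7.02, 7.05, 7.03 and 7.14 in parental ones. Its difference was 0.58 (SE 0.16, limma adjusted p = 0.435), with stable R3 highest. PHLDA1 had a gap of only 0.01, with stable values of 8.08 to 8.89 against parental values of 8.03 to 8.07. Of 20 measured genes of MAP kinase output and feedback, 2 lay above and 1 below the parental range, against 0.826% and 1.42% of all genes, and the median difference was 0.04. At an unadjusted p under 0.05, 5 were higher and 2 lower, against 2.47% and 3.62% of all genes.

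LTBP1, which holds latent TGF-beta in the matrix, measured 10.93, 10.24, 10.23, 10.92 and 10.99 in stable arrays, against 11.76, 11.89, 11.70 and 11.74 in parental ones. The difference was -1.11 (SE 0.17, limma adjusted p = 0.0823), and the selected arrays, at 10.44 to 10.88, lay within the stable range. EFEMP1, the matrix glycoprotein fibulin-3, measured 7.39, 6.34, 6.49, 6.94 and 6.51 in stable arrays, against 8.01, 8.24, 8.22 and 7.92 in parental ones. It differed by -1.36 (SE 0.19, limma adjusted p = 0.0738), and selected R1, at 8.15, was the one selected array inside the parental range.

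VIT, the matrix protein vitrin, measured 9.0, 6.93, 7.44, 7.52 and 7.70 in stable arrays, against 9.22, 9.57, 9.55 and 9.41 in parental ones. The difference of -1.72 (SE 0.32, limma adjusted p = 0.187) came with a wide spread among sublines (SD 0.77, n = 5), R1 being the highest. CP, the copper-carrying ferroxidase ceruloplasmin, was also highest in R1, with 9.02, 6.76, 7.08, 8.08 and 7.29 in stable arrays, against 9.16, 9.74, 9.50 and 9.25 in parental ones. Stable R1 was only 0.14 below the lowest parental array. TMEM100, a membrane protein known from endothelial BMP signalling, measured 8.04, 5.48, 6.39, 8.09 and 6.78 in stable arrays, against 8.35, 9.10, 8.33 and 9.06 in parental ones. The differences of CP and TMEM100 were -1.77 (limma adjusted p = 0.259) and -1.75 (limma adjusted p = 0.426). MMP10, a matrix metalloproteinase, measured 6.95, 6.36, 6.40, 6.76 and 6.74 in stable arrays, against 7.12, 7.84, 7.46 and 7.58 in parental ones, and 7.39 to 8.71 in selected ones. EFEMP1 in 3 stable arrays, and TMEM100 and MMP10 in 2 each, lay at or below the mean of the olfactory receptor genes of the same array, a measure of background described further on, so these values were not above background by that measure.

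KRT4, a keratin of stratified mucosal epithelium, measured 8.77, 8.28, 8.40, 9.0 and 8.63 in stable arrays, against 9.64, 10.55, 9.72 and 10.41 in parental ones, a difference of -1.46 (SE 0.21, limma adjusted p = 0.0738). TMEM178A, a transmembrane protein, measured 9.59, 9.09, 9.01, 9.35 and 9.39 in stable arrays, against 10.99, 10.26, 10.68 and 10.23 in parental ones, a difference of -1.26 (SE 0.17, limma adjusted p = 0.0738). Its selected arrays, at 8.95 to 9.50, stayed beside the stable ones. LRP2, the endocytic receptor megalin, measured 6.73, 6.62, 6.56, 6.78 and 6.68 in stable arrays, against 7.23, 7.63, 8.11 and 7.32 in parental ones. Selected R1, at 8.27, lay above the parental arrays and R3, at 7.29, within their range, while selected R5, R6 and R7, at 6.71, 6.87 and 6.65, lay below. Its signal in 2 stable arrays was at or below the olfactory receptor mean.

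The other genes named by their gap or size on the lower side were STK17B, a kinase linked to apoptosis (-1.0, gap 0.38), ERP27, a protein of the endoplasmic reticulum (-1.10, gap 0.26), RGCC, a regulator of the cell cycle (-0.61, gap 0.25), RNF180, a ubiquitin ligase (-1.19, gap 0.24), and the noncoding RNA LINC00312 (-1.22, gap 0.22). RNF180 measured 8.19 to 9.20 in stable arrays, 9.41 to 10.40 in selected arrays and 9.44 to 10.28 in parental arrays. Of the 10 consecutive measured genes from CXCL8 to CXCL2 on chromosome 4, 3 were in the lower set, against 1.42% of all genes, and CXCL8 was not among them. These were the neutrophil chemokines CXCL1, CXCL2 and CXCL6, the last by only -0.12. CXCL2 measured 7.98, 7.90, 7.49, 7.48 and 7.40 in stable arrays, against 8.14, 9.30, 8.39 and 9.09 in parental ones (-1.08, SE 0.23, limma adjusted p = 0.251). Among 20 measured NF-kB targets and chemokines, 2 lay below and 1, the adhesion molecule ICAM1, above the parental range, against 1.42% and 0.826% of all genes.

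On the higher side, NID2 had the largest difference and the widest gap. NID2 codes for nidogen-2, which links laminin to collagen in basement membranes. It measured 11.60, 12.32, 11.95, 10.79 and 11.05 in stable R1, R3, R5, R6 and R7, against 10.25, 9.84, 9.55 and 9.79 in parental arrays. The mean was 11.54 ± 0.63 (SD, n = 5) in stable and 9.86 ± 0.29 (SD, n = 4) in parental cells, a difference of 1.69 (SE 0.28, limma adjusted p = 0.121), or 3.22 times the parental signal. The selected arrays, at 10.98 to 11.95, were also above every parental array.

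CD44, the surface receptor for hyaluronan, measured 9.66, 11.03, 10.31, 9.22 and 9.54 in stable arrays, against 8.81, 9.09, 8.50 and 9.0 in parental ones. Its difference was 1.10 (SE 0.31, limma adjusted p = 0.444), and the selected arrays lay at 9.60 to 10.72. ADAMTS5, a protease that cleaves aggrecan, measured 8.20, 9.85, 9.74, 7.90 and 8.56 in stable arrays, against 7.87, 7.51, 7.54 and 7.40 in parental ones, and 7.05 to 7.95 in selected ones. EMP1, a membrane protein of epithelia, measured 9.56, 11.24, 10.79, 9.55 and 9.69 in stable arrays, against 9.51, 9.17, 8.52 and 9.17 in parental ones. In all 3 genes R3 was highest and R5 next, with gaps of 0.13, 0.03 and 0.04.

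CRYAB, the small heat shock protein alpha-B crystallin, measured 11.23, 10.51, 10.89, 10.64 and 10.61 in stable arrays, against 10.03, 9.82, 9.51 and 9.69 in parental ones. The difference was 1.01 (SE 0.15, limma adjusted p = 0.0818), with a gap of 0.49. In inhibitor the same sublines had 9.06, 8.50, 9.09, 9.43 and 9.86, of which R7 lay within the parental range and the others below it. CRYAB was the only one of 16 measured small heat shock proteins and chaperones outside the parental range in all stable arrays. Of all genes, 2.24% lay outside on 1 side, and the median difference of that list was 0.02.

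The kallikrein-related peptidases, secreted serine proteases encoded in 1 cluster on chromosome 19, held 4 non-overlapping genes among 15 measured, all higher, against the background of 0.826%. KLK10 measured 10.23, 10.68, 10.61, 10.35 and 10.27 in stable arrays, against 9.59, 9.63, 9.41 and 9.82 in parental ones (0.82, SE 0.12, limma adjusted p = 0.0738). KLK5 measured 10.41, 10.82, 10.80, 10.32 and 10.36 in stable arrays, against 9.74, 9.82, 10.08 and 9.56 in parental ones (0.75, SE 0.14, limma adjusted p = 0.187). KLK7 and KLK8 had narrow gaps of 0.01 and 0.02 and differences of 0.48 and 0.25. The other 11 members all overlapped and the median of the list was 0.05. The selected arrays separated the 2 leading members, since KLK10 lay at 9.22 to 10.00 there, around its parental values, and KLK5 at 10.26 to 10.56, above them.

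**Figure D3:**
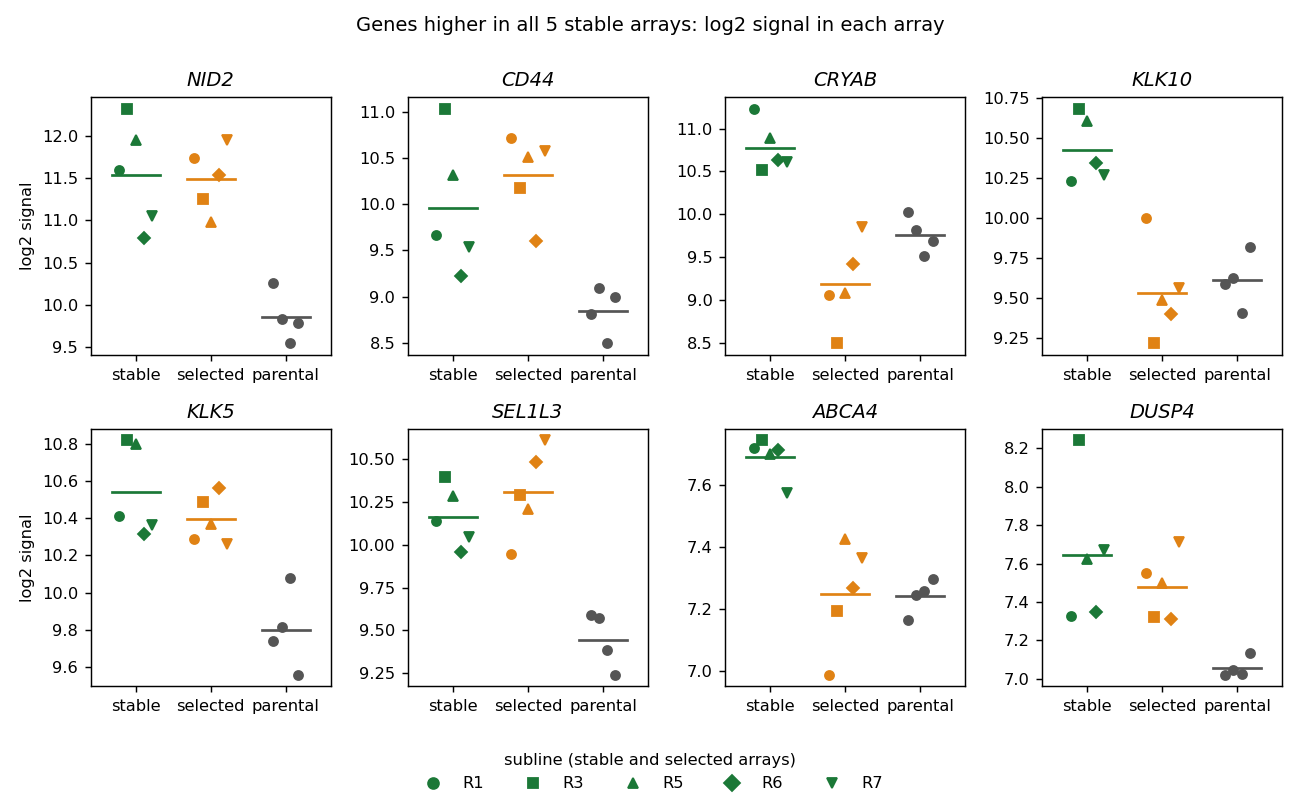
Log2 signal of 8 genes that were higher in every stable array, drawn as stable (green), selected (orange) and parental (grey) arrays from left to right with a line at each group mean and the marker shape naming the subline. NID2, CD44, KLK5, SEL1L3 and DUSP4 are also above every parental array in the selected state. In CRYAB, KLK10 and ABCA4 every selected array lies below every stable one.

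ABCA4, a transporter of retinoids known from photoreceptors, measured 7.72, 7.74, 7.70, 7.71 and 7.57 in stable arrays, against 7.16, 7.24, 7.26 and 7.30 in parental ones (0.45, SE 0.07, limma adjusted p = 0.0818). Its selected values were 6.99, 7.19, 7.42, 7.27 and 7.36. ABCC3, a drug and conjugate exporter, measured 8.40, 9.25, 9.11, 8.37 and 8.75 in stable arrays, against 8.35, 8.27, 8.22 and 8.31 in parental ones. These were 2 of 14 measured genes in the drug efflux list, which counts the retinoid transporter ABCA4, against 0.826% of all genes higher. The other 12 overlapped, ABCB1 among them at 6.18 to 6.51 in stable and 6.14 to 6.56 in parental arrays. ABCB1 is named after its values were seen because it codes for the best known multidrug pump. SEL1L3 measured 10.14, 10.40, 10.28, 9.96 and 10.04 in stable arrays, against 9.59, 9.57, 9.38 and 9.24 in parental ones (0.72, SE 0.11, limma adjusted p = 0.0823), and its selected arrays lay at 9.95 to 10.61.

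The remaining higher genes named by gap were TRAF5, an adaptor of tumour necrosis factor receptors (0.32), GORAB, a Golgi protein (0.40), the zinc finger gene ZNF90 (0.37), the antisense RNA WT1-AS (0.42) and GOLT1A (0.27), each with a gap of 0.18 to 0.25. ZNF90 was at or below the olfactory receptor mean in all 9 arrays. WT1-AS overlaps WT1 on the opposite strand, and its selected values of 7.47 to 7.95 were below its stable ones of 8.22 to 8.57. Those named by size were QPCT, which forms the pyroglutamate end of secreted peptides (0.74), REP15 (0.73), LRIF1 (0.69) and PHLDB2 (0.69). Their gaps were 0.03, 0.003, 0.02 and 0.0001, and R3 was the highest array in each. REP15 was at or below the olfactory receptor mean in 2 stable and 3 parental arrays. EGF, a ligand of the EGF receptor, measured 6.51 to 6.73 in stable arrays, against 6.24 to 6.43 in parental ones, with the same numbers of arrays at or below that mean.

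No gene of the CDK2 and cyclin E list was non-overlapping. CCNE1 measured 11.16, 11.15, 10.70, 11.11 and 10.89 in stable arrays, against 10.89, 11.13, 10.77 and 10.98 in parental ones (0.06, SE 0.11, limma adjusted p = 0.999), and 11.07 to 11.61 in selected ones. CDK2 measured 10.22, 10.17, 10.10, 9.92 and 9.95 in stable arrays, against 9.82, 9.93, 9.71 and 9.73 in parental ones (0.27, SE 0.09, limma adjusted p = 0.528). It missed the rule by 0.01, since stable R6 lay below parental array 2. None of the 22 measured genes of CDK2 and cyclin E regulation lay outside on 1 side. The share of all genes was 2.24%, at which so short a list can hold none. At an unadjusted p under 0.05, 2 were higher and 2 lower, against 2.47% and 3.62% of all genes. The median difference of the list was 0.04. Its widest differences, named after their values were seen, overlapped through 1 subline each. CCNA1, a cyclin A that can activate CDK2, measured 10.20, 11.12, 8.98, 10.40 and 9.97 in stable arrays, against 9.31, 9.56, 8.90 and 9.35 in parental ones (0.85). WEE1, the kinase that holds CDK1 and CDK2 inactive, measured 9.69, 10.78, 9.05, 9.66 and 9.46 in stable arrays, against 10.61, 10.64, 10.22 and 10.80 in parental ones (-0.84). The 21 measured neighbours in the 19q12 list, CCNE1 included, also held none, against the same 2.24%. Their median was -0.133, with 20 below 0, and at an unadjusted p under 0.05, 3 were lower and 0 higher. DNA replication (33 measured) held 1 lower gene, against 1.42% of all genes. This was RFC3, a subunit of the clamp loader, at 10.12 to 10.50 in stable arrays, against 10.57 to 10.86 in parental ones.

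**Figure D4:**
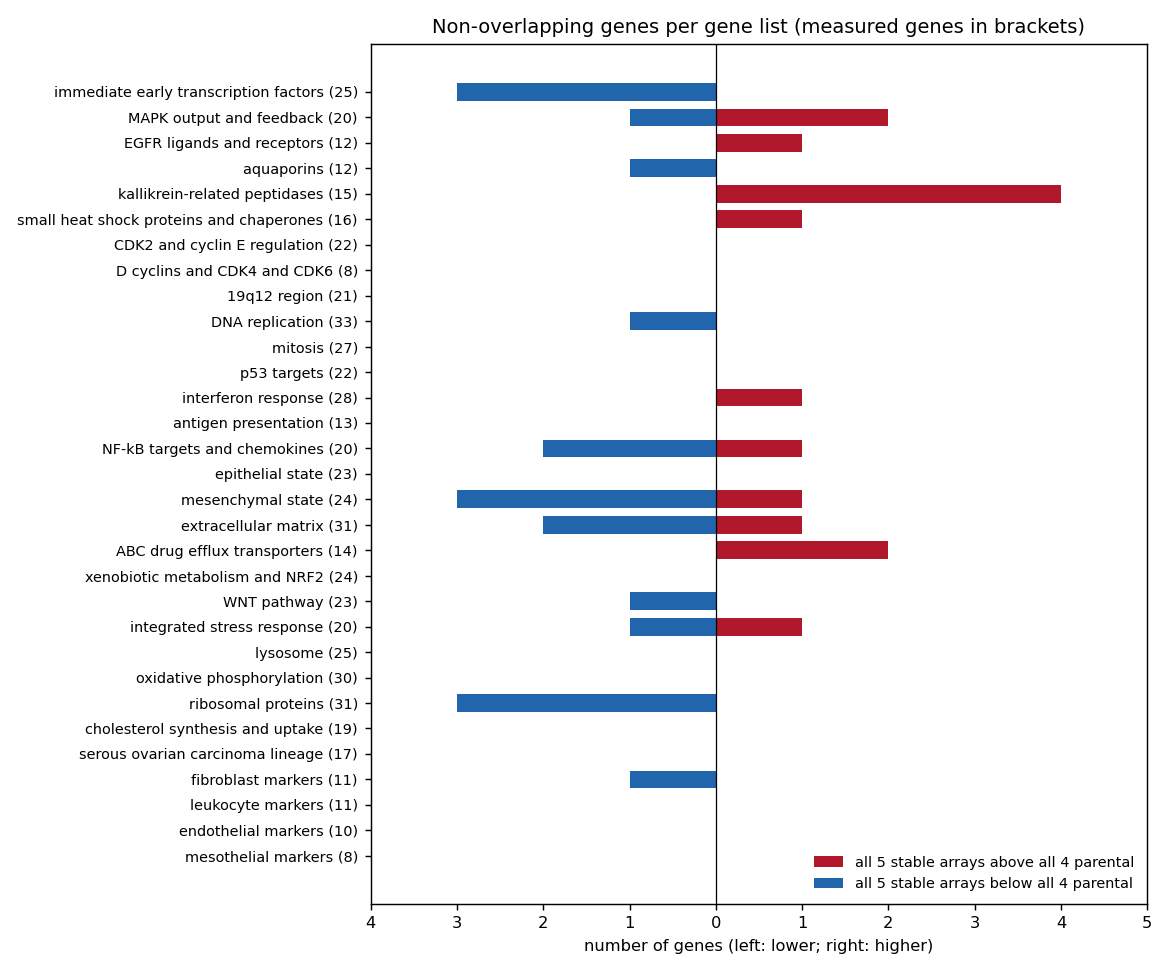
Number of genes per list whose 5 stable values all lay above (red, right) or all below (blue, left) the 4 parental values, with the number of measured genes in brackets. Kallikreins hold 4 higher genes, immediate early genes, mesenchymal genes and ribosomal proteins 3 lower ones each, and the CDK2, mitosis and p53 lists none. Of all genes, 0.826% lay above and 1.42% below.

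In the other lists, the share outside the parental range on 1 side was 16.7% of mesenchymal genes, 9.7% of matrix genes and 9.7% of ribosomal protein genes, against 2.24% of all genes. Of 24 mesenchymal genes, FBN1, the microfibril protein fibrillin-1, was higher (7.17 to 7.37 in stable arrays, against 6.93 to 7.09 in parental ones) and EFEMP1, LTBP1 and CCN1 were lower. Of 31 matrix genes, NID2 was higher and EFEMP1 and MMP10 lower. In the WNT list of 23 the ligand WNT5A was lower, at 8.99 to 9.70 in stable arrays, against 9.71 to 9.93 in parental ones. Of 31 ribosomal protein genes, RPS9, RPL3 and RPS14 were lower, by -0.32, -0.21 and -0.14. RPS9 has a second row on the array that differed by 0.317, the other way. That row averaged 6.557, within the olfactory receptor means of 6.18 to 6.72, against 12.676 for the row used. The median of the ribosomal list was -0.053, with 24 below 0. No gene was outside on 1 side in the lists for mitosis, p53 targets, D cyclins, antigen presentation, epithelial state, NRF2, lysosome, oxidative phosphorylation and cholesterol.

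The sublines did not form 1 homogeneous group. A further 782 genes (4.25% of all) had every stable array outside the parental range but on both sides of it. The commonest arrangement was R1 above and the other 4 below (144 genes), followed by R1 and R3 above with R5, R6 and R7 below (119 genes) and its mirror image (104 genes). The mean of 360 olfactory receptor genes, which most tissues do not express and which therefore follows background signal, was 6.19 and 6.40 in stable R1 and R3 and 6.61, 6.64 and 6.70 in R5, R6 and R7, against 6.43, 6.18, 6.72 and 6.41 in parental arrays. Its part in these arrangements was not tested. Between the groups it averaged 6.51 ± 0.21 (SD, n = 5) in stable and 6.43 ± 0.22 (SD, n = 4) in parental arrays (exact permutation test, two-sided, p = 0.651).

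The integrated stress response, in which ATF4 turns on amino acid synthesis and transport genes, was the list with the most genes on both sides. It held 6 such genes of 20, against 4.25% of all genes. Its mean over genes was 0.42 and 0.40 above the parental mean in stable R1 and R3, and -0.35, -0.22 and -0.35 in R5, R6 and R7, while parental arrays lay within -0.07 to 0.05. The olfactory receptor mean parted the same sublines, at 6.19 and 6.40 against 6.61 to 6.70, and spanned 6.18 to 6.72 in parental arrays. The part of background in this list was not tested. ASNS, asparagine synthetase, measured 10.60 and 10.26 in R1 and R3 and 9.02, 9.57 and 9.49 in R5, R6 and R7, against 9.72 to 10.10 in parental arrays. ALDH1L2, a mitochondrial folate enzyme, measured 8.80 and 8.96 in R1 and R3 and 7.52, 7.47 and 7.34 in the others, against 7.71 to 7.87 in parental arrays. Both are named after their values were seen. ATF4 itself was lower in all 5 stable arrays, at 10.81, 10.16, 9.80, 9.81 and 9.74, against 11.42, 11.29, 10.87 and 11.21 in parental ones (-1.13, SE 0.21, limma adjusted p = 0.187). A second ATF4 row differed by -0.503. ATF5, a related factor, was higher, at 8.35 to 8.53 in stable arrays, against 8.15 to 8.31 in parental ones.

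Subline R3 stood apart in the interferon response. The mean of 28 interferon-stimulated genes was 0.56 above the parental mean in R3, 0.22 in R5 and 0.03 to 0.07 in R1, R6 and R7, while parental arrays lay within -0.04 to 0.02. IFI6 measured 9.27, 10.98, 9.70, 8.69 and 9.16 in stable arrays, against 9.09, 9.09, 8.98 and 8.84 in parental ones, and was counted among the genes on both sides because R6 lay below. IFI27 measured 7.23, 8.33, 7.81, 7.36 and 7.37 in stable arrays, against 7.10, 7.04, 7.15 and 7.19 in parental ones. It was the 1 list member of 28 above the range in all 5, against 0.826% of all genes. The widest stable spreads among such two-sided genes were in TRIM67, at 7.48, 10.13, 10.66, 7.91 and 10.67 in stable arrays against 8.17 to 9.63 in parental ones, and in IFNE, an epithelial interferon, at 7.98, 5.57, 6.55, 6.40 and 6.06 in stable arrays against 5.62 to 5.94 in parental ones, with 4 stable and all 4 parental arrays at or below the olfactory receptor mean. PPARGC1A, a coactivator of mitochondrial genes, was low only in R3, at 7.5 against 9.31 to 9.82 in the other stable arrays and 9.11 to 9.30 in parental ones. ODAD2, a dynein docking component of cilia, and BHLHE41, a clock repressor, were both highest in R3, at 8.80 and 10.99.

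Cholesterol genes ordered the sublines differently. The mean of 19 genes of cholesterol synthesis and uptake lay at 0.27, -0.03, -0.15, -0.36 and -0.54 from the parental mean in stable R1, R3, R5, R6 and R7, and parental arrays lay within -0.11 to 0.15. The olfactory receptor mean ran the opposite way, at 6.19, 6.40, 6.61, 6.64 and 6.70 in the same sublines. Parental array 2 had the highest cholesterol and lowest olfactory receptor mean of its group, and array 3 the reverse. The part of background in this order was not tested. HMGCS1, which makes HMG-CoA and is named after its values were seen, measured 10.81, 10.64, 9.90, 9.80 and 9.35 in stable arrays, against 10.24, 10.55, 10.23 and 10.41 in parental ones.

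Among the 413 genes, R3 was the subline farthest from parental cells most often, for 64 of the higher and 106 of the lower genes. R1 was the nearest for 92 of the lower genes but 29 of the higher ones, where R6 was nearest for 56. Over all genes the order differed. The median absolute distance from the parental mean was largest in R1 (0.163), then R3 (0.138), and smallest in R5 (0.103). Most gaps were small. They reached 0.05 for 202 genes (68 higher, 134 lower), 0.2 for 32 (9 higher, 23 lower) and 0.5 for 8 (1 higher, 7 lower). The median standard deviation of all genes was 0.157 among stable and 0.132 among parental arrays. Just inside the rule lay PHLDB2, ZNF2 and PYDC1 with gaps of 0.0001 to 0.0002, and just outside it TLX3, MMP24 and POLR1HASP with overlaps of 0.0003 to 0.0004.

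The lower genes were unevenly placed along the genome. Chromosome 22 held 35 lower and 0 higher genes among 423 measured (8.27% lower), chromosome 13 held 16 lower and 0 higher among 316 (5.06%), and chromosome 5 held 31 lower and 1 higher among 781 (3.97%), against 1.42% of all genes. On chromosome 22, 3 of the 35 are small nucleolar RNAs encoded within RPL3 (SNORD83B, SNORD83A and SNORD43), so they share a transcript with a further member. The 10-gene window from APOBEC3F to SYNGR1 held 7 of them. The stretch from SOX10 to XRCC6, 60 measured genes chosen after their values were seen, held 15 lower genes and 55 with a difference below 0. Its median was -0.18, -0.11, -0.18, -0.31 and -0.28 in stable R1, R3, R5, R6 and R7, against 0.03, 0.04, -0.06 and 0.02 in parental arrays 1 to 4, all relative to the parental mean. In inhibitor the same sublines lay at -0.16, -0.20, -0.25, -0.39 and -0.29. The lower signal was not confined to this stretch. In all 9 windows of 20 genes from CYTH4 to MAPK8IP2 the median was below 0 in every stable array, and the 6 of them outside the stretch held 16 further lower genes, with medians of -0.22 to -0.06 in stable and -0.09 to 0.09 in parental arrays. CYTH4 is not a sharp boundary. The window before it, APOL2 to RAC2, was also below 0 in every stable array, at -0.149 to -0.021, against -0.057 to 0.04 in parental arrays. Among the genes from SOX10 to XRCC6 were ATF4, the RNA helicase DDX17 (-0.34) and CBX7, a Polycomb protein (-0.17). XRCC6 itself codes for the Ku70 subunit of DNA end joining (-0.32). Just before the stretch, in the window from CYTH4 to POLR2F, lay EIF3L, a subunit of a translation initiation factor (-0.50). DNA copy number was not measured here.

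**Figure D5:**
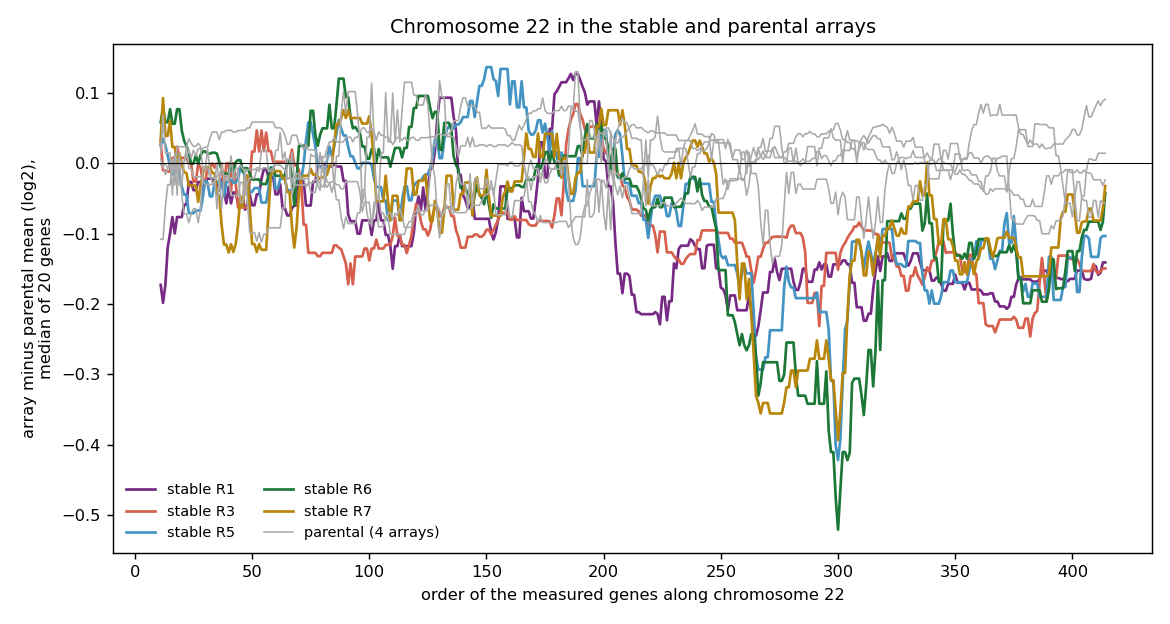
Median over 20 consecutive measured genes along chromosome 22 of each array's log2 signal minus the mean of the 4 parental arrays, with 1 coloured line per stable subline and grey lines for parental arrays. The lines are moving medians. In the 9 separate windows from CYTH4 to MAPK8IP2 the medians of all 5 stable arrays were below 0. The moving line of R7 lies slightly above 0 from CYTH4 (0.03) to LGALS2 (0.001) and at OGFRP1 (0.001). Over the stretch from SOX10 to XRCC6 the stable medians were -0.11 to -0.31.

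On cell identity, the 11 markers of serous ovarian carcinoma averaged 10.02 to 10.39 in stable and 10.14 to 10.32 in parental arrays, and none lay outside the parental range in all stable arrays. The narrow sets of defining markers of fibroblasts (7 genes), leukocytes (7), endothelium (6) and mesothelium (4) averaged at most 6.96 in stable and 6.98 in parental arrays. Signal cannot be set between probes exactly, but 10 of the 11 carcinoma markers and none of these were above the median gene. The longer lists averaged 6.70 to 7.06 in stable and 6.82 to 7.12 in parental arrays for fibroblasts (11 genes) and 7.88 to 8.07 in stable and 7.86 to 8.01 in parental arrays for mesothelium (8 genes). Above the median gene there were COL1A1 and ACTA2 for fibroblasts, NKG7 for leukocytes, CLDN5 and ERG for endothelium, and MSLN, WT1 and KRT5 for mesothelium, of which MSLN and WT1 are also carcinoma markers. One fibroblast marker, POSTN, was in the lower set, at 5.18 to 5.34 in stable arrays, against 5.39 to 5.53 in parental ones, all of them below the olfactory receptor mean.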

How the data were processed

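The data are 14 Affymetrix whole-transcript arrays of OVCAR-3 RNA. The deposited values are on a log2 scale, one column per array, as the values themselves show (4.343 to 14.921; medians of the 9 compared arrays 7.548 to 7.682). How the authors corrected background and normalized is not given in the sources used here, and precision is limited by the number of arrays. Probe rows were named through the platform annotation (19148 rows with 1 gene, 1376 with several, 11771 unnamed; 19118 matched RefSeq by gene ID), and only rows naming 1 gene were used, the highest-mean row per gene.

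Stable and parental arrays were compared with limma's lmFit and eBayes (version 3.58.1, R 4.3.3, no covariate, Benjamini-Hochberg over 18398 genes, threshold 0.05), checked on simulated data. A gene was non-overlapping if all 5 stable values lay above, or all below, the 4 parental values; the gap is the distance between the nearest values. Genes named were CCNE1, CDK2, called genes, the 12 widest gaps and 12 largest differences each way, the 6 two-sided genes with the widest stable range and up to 4 members per list (31 lists, 601 of 660 genes measured), with other names marked. Members and lists were chosen with earlier results of these data known. A planned fit of selected against stable arrays was left out, because the genes were chosen on the stable arrays; values are given instead. Olfactory receptor means were compared by an exact permutation test (126 arrangements, smallest p 0.0159). Alternatives covered variance model, array weights, normalization, signal filter, rows per gene, fits of all 14 arrays and leaving out each array.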

Additional observations from a re-analysis of the deposited data

Results flagged for a closer look

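In 65 named genes, 130 groups of 4 or 5 arrays were examined and in 8 of them 1 array lay far from the rest of its group, where chance gives about 1 in 20. Stable R3 was high in PHLDB2 (10.00, the other stable arrays 8.41 to 8.80) and low in PPARGC1A (7.5, the others 9.31 to 9.82). Stable R1 was high in FOS (9.46, the others 8.01 to 8.20). Stable R7 was low in ABCA4 (7.57, the others 7.70 to 7.74) and stable R6 high in GOLT1A (8.51, the others 8.35 to 8.38). Parental array 3 was low in TRAF5 (6.43, the others 6.51 to 6.52), DUSP1 (10.04, the others 10.38 to 10.40) and ICAM1 (8.44, the others 8.72 to 8.73).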

How the results depend on the processing

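AQP5 was called under all 19 alternatives, with a difference of -1.103 to -0.968 and limma adjusted p of 0.000612 to 0.0319. The number of genes called moved more. It was 5 with a trended and robust variance, 286 with array weights, 4 among genes above the 40th percentile of mean signal, 8 in 1 fit of all 14 arrays and 7 with subline as a random block there, and 76 when each array's olfactory receptor mean entered the fit, an alternative that was chosen after seeing the data. Leaving out 1 array gave 1 to 26 calls: 26 without stable R1, 2 without stable R3 (DUSP1 added), 2 without parental array 3 (RGCC added) and 1 otherwise. FOS was called under 7 of 19 alternatives, TMEM178A under 7, and DUSP1, EGR1, LTBP1 and KRT4 under 5 each. The count of 413 non-overlapping genes was 507 to 948 when 1 array was left out, which by construction can only raise it; 32 had a gap of at least 0.2. Quantile normalization gave 594, of which 270 were shared, and median centring 327 (145 higher, 182 lower), of which 185 were shared, against 152 higher and 261 lower as deposited. Signs turned for CCNE1 with array weights (-0.032) and for PPARGC1A with array weights (0.044) and without stable R3 (0.292), where its difference was -0.288 without stable R1; the cause was not tested. No paired analysis was possible because the parental arrays carry no subline. Signal over background is unknown, and 9 arrays limit the precision.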
